A study of Mus musculus with 12 samples.

Results

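A set of 9 genes of the basement membrane and of wound matrix was followed across 4 groups of mouse keratinocyte libraries: the laminin chains Lama3, Lama5, Lamb1, Lamb3 and Lamc1, the collagens Col17a1 and Col7a1, and the wound glycoproteins Thbs1 and Tnc. They were chosen by gene symbol, and 9 of 9 were found among the 54532 genes of the deposited count table. All 9 had enough counts to be tested among 13571 genes. The cells were cultured keratinocytes, which build the epidermis, of the genotype WT DP-BirA(1-584): they carry a piece of the desmosome protein desmoplakin (DP) joined to the biotin ligase BirA. Every group was given calcium to differentiate, doxycycline at 2 µg/mL to switch on the fusion protein, and biotin for 16 h, and was either left unwounded or scratch wounded. Neutravidin resin, which captures biotin, was mixed with the translating part of a sucrose gradient: captured RNA is called cortical, and RNA that stayed behind is called total, so the total fraction is a remainder and not the whole. The 4 groups, each of 3 libraries labelled as biological replicates, were the total and the cortical fraction of unwounded cells and the same fractions of wounded cells. The study compared the mRNAs translated near the cell cortex with the remainder, in both states. The labels do not say whether replicates came from separate cultures, so p-values measure the spread between these libraries.

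The basement membrane is the thin sheet of matrix on which basal keratinocytes sit. Laminins are its cross-shaped trimers of an alpha, a beta and a gamma chain. The laminin that holds the Lama3 and Lamb3 products anchors epidermis to dermis at hemidesmosomes and is laid down by keratinocytes that crawl over a wound, while the one of Lama5, Lamb1 and Lamc1 products is the common laminin of mature epithelial basement membranes. Collagen XVII, from Col17a1, is a transmembrane protein of the hemidesmosome, and collagen VII, from Col7a1, forms the anchoring fibrils beneath the membrane. Thrombospondin-1 and tenascin-C, from Thbs1 and Tnc, are glycoproteins of the matrix known for their presence in healing wounds.

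Library totals ran from 8980013 to 23457548 counts. Replicate 1 of the wounded total group stood apart: among genes that the rest of its group put at 10 to 20 counts, 438 of 1063 (41.2%) had none, while the same share was 0.607% to 24.7% over the other 11 libraries. Counts of called genes are given with and without it. All 11 keratinocyte markers checked were detected, with summed levels of 11010 to 12120 CPM (counts relative to library size, with TMM scaling) in unwounded total, 15400 to 15570 in unwounded cortical, 17500 to 20190 in wounded total and 20780 to 21100 in wounded cortical libraries. Of 13 fibroblast markers 6 were abundant enough to test. The fibroblast sum was 19.1 to 29.4 CPM in unwounded total, 20.9 to 25.2 in unwounded cortical, 36.4 to 40.1 in wounded total and 31.7 to 33.6 in wounded cortical libraries, with Dcn and Thy1 at 0 in every group. The melanocyte sum was 2.31 to 10.4 CPM, the endothelial sum 0.274 to 2.77 CPM and the immune sum 0 to 0.285 CPM. The part of these marker levels in the results was not tested, and in bulk libraries fewer cells of a type and less RNA per cell cannot be told apart.

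Several of the 9 matrix mRNAs were more abundant in the cortical than in the total fraction. In unwounded cells Lamb3, Col7a1, Col17a1 and Lama5 were higher in the cortical fraction, 4 of the 9 genes, against 6.62% of all genes tested, and 0 were lower, against 7.59%, with 0 lower at an unadjusted p under 0.05 and 0 by DESeq2 or limma. The median log2 fold change of the 9 was 0.59, against 0.00 over all genes. In wounded cells Tnc, Col7a1, Col17a1, Lama5 and Lama3 were higher in the cortical fraction, 5 of 9, against 7.62% of all genes, and 0 were lower, against 8.03%, again with 0 at an unadjusted p under 0.05 and 0 by DESeq2 or limma. The median of the 9 was 0.57, against 0.04 over all genes. Differences were called at an adjusted p under 0.05 in an edgeR quasi-likelihood fit of all 12 libraries, adjusted over all genes. Without wounded total replicate 1, 5 of 9 were higher in unwounded cells, against 10.1% of all genes, and 6 of 9 in wounded cells, against 12.1%.

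Wounding raised a smaller set of these mRNAs. In the total fraction Lamb3 and Col17a1 rose, 2 of 9, against 8.39% of all genes, and 0 fell by edgeR, against 7.2%, with 2 lower at an unadjusted p under 0.05 (Lama5 and Tnc), 1 of them (Tnc) called by DESeq2 and 0 by limma. In either direction 5 of the 9 had an unadjusted p under 0.05 in edgeR, against 3972 of all 13571 genes. The median log2 fold change of the 9 was -0.15, against -0.03 over all genes. In the cortical fraction Col17a1, Lamb3 and Lama3 rose, 3 of 9, against 1.6% of all genes, and 0 fell, against 0.884%, with 0 lower at an unadjusted p under 0.05 and 0 by DESeq2 or limma. The median was 0.11, against 0.02 over all genes. The cortical-to-total ratio was called different between wounded and unwounded cells for 0 of the 9 by edgeR, against 0.125% of all genes, and also for 0 by DESeq2 and by limma. In edgeR 2 of 9 (Lamb3 and Tnc) had an unadjusted p under 0.05 for this ratio, against 1228 of all 13571 genes. Without wounded total replicate 1, the members called were 2 higher (against 13.4% of all genes) and 1 lower (against 11.5%) with wounding in the total fraction, 3 higher in the cortical fraction (against 5.47%), and 1 with a higher cortical-to-total ratio after wounding (against 1.06%). Comparisons that share a group share its libraries, so they are not independent of one another.

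**Figure D1:**
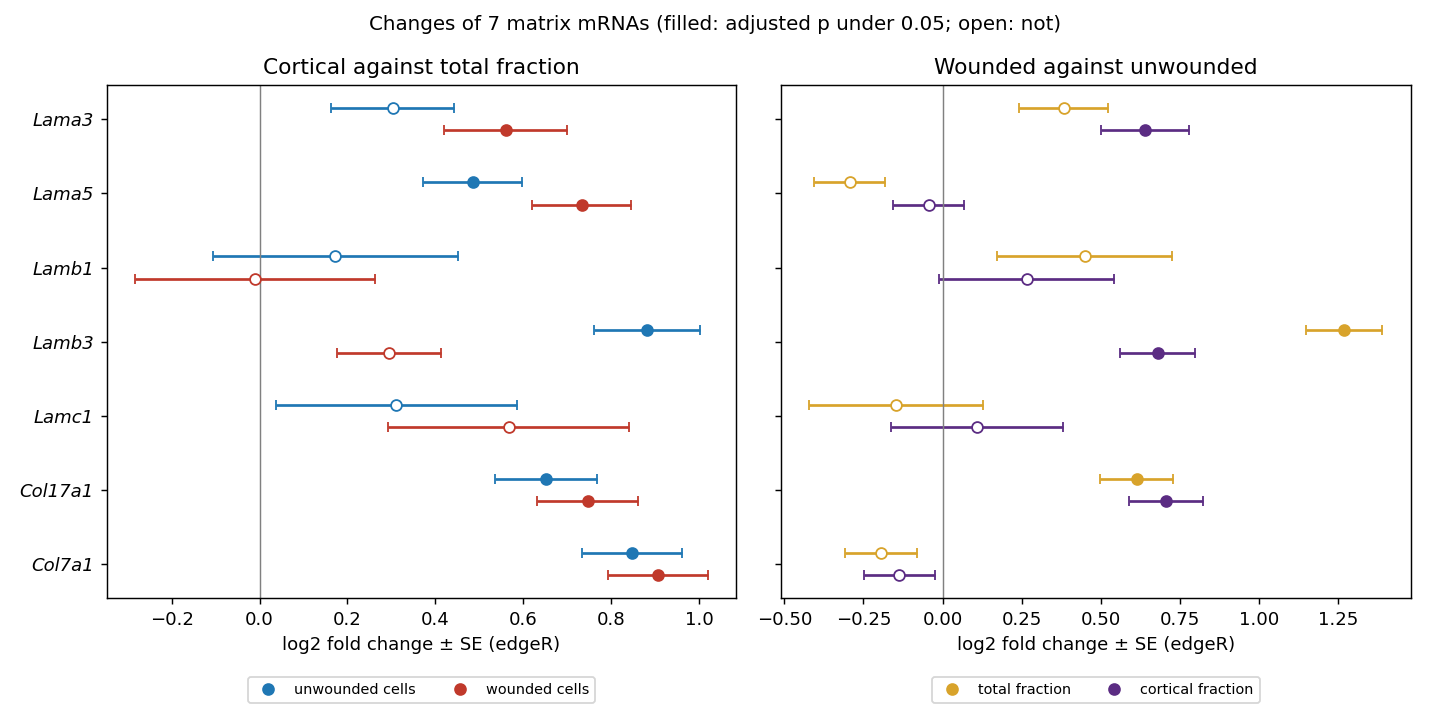
Log2 fold changes with their standard errors (edgeR) for the 7 laminin and collagen genes, cortical against total on the left and wounded against unwounded on the right; filled points passed an adjusted p under 0.05 and open points did not. Col7a1 and Col17a1 lie right of 0 in both cell states on the left, and Lamb3, at 1.27 in the total fraction, lies farthest right in the right panel.

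The sequences next to the start sites are shown for 3 members, chosen with their values known, because they differ in their response to wounding: Lamb3 and Col17a1 rose in both fractions, and Lama5 was called in neither. Each window, from RefSeq on GRCm38.p6, runs 5′ to 3′ along the gene from 250 bases before a start site to 50 after it, and 6 of the 9 members matched an entry, all but Lama3, Lamc1 and Thbs1. Both strands were searched for 5 motifs that carry the names of known elements. These were TGANTCA for AP-1 and GGGCGG for the GC box. They also included TATAAA for the TATA box and CATTCC for TEAD factors. The last was CACGTG for the E-box. Capitals mark the matches, so a match on the opposite strand shows as its complement. The Col17a1 window (chr19:47691993-47692292, minus strand), the Lama5 window (chr2:180225810-180226109, minus strand) and the downstream of the Lamb3 windows (chr1:193301993-193302292, plus strand) read as follows.
Col17a1: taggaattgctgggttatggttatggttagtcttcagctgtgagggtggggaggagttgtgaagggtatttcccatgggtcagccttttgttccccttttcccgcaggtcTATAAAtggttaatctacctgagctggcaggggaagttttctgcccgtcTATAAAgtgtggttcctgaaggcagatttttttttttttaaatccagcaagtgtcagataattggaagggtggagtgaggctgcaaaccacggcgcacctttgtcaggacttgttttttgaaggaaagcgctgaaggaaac
Lama5: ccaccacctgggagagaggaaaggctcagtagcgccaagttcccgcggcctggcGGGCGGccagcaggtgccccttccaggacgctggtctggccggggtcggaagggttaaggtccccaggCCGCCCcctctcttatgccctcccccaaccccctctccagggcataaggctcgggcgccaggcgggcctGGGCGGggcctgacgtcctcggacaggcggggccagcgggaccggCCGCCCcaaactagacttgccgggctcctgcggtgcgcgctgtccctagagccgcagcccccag
Lamb3: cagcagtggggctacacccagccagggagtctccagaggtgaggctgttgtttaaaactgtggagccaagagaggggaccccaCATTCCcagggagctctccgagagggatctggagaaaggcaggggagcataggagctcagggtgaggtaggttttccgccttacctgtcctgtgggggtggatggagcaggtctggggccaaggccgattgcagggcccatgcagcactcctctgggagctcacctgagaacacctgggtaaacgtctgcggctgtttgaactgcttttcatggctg
Col17a1 held TATAAA at 2 places, at bases -140 and -91 from the start site. The motif was found in 13.6% of all 32851 windows of this length, and the Tnc windows also held it. Lama5 held GGGCGG at 4 places, counting both strands, a motif found in 35.7% of all windows. It was also in windows of Tnc, Col7a1 and Lamb1. Lamb3 held CATTCC at 1 place, a motif of 14.7% of windows, and none of the 5 motifs was in its other window (chr1:193301744-193302043), which is not printed. Both Lamb3 windows lie inside the deposited gene span, which starts at 193207699, so their start sites are not the deposited gene start. TGANTCA, found in 7.81% of all windows, and CACGTG, found in 7.15%, were in none of the 8 windows of the 6 members searched. The GC content was 46.3% for Col17a1, 72.7% for Lama5 and 59.3% for Lamb3. A match is a run of letters and not evidence of binding.

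Lamb3 encodes the beta chain of the hemidesmosomal laminin (ENSMUSG00000026639, chromosome 1, 193207699 to 193343878, plus strand). It was 88.0, 71.9 and 95.0 CPM in unwounded total replicates 1 to 3 and 160, 167 and 142 CPM in unwounded cortical replicates. It was 229, 181 and 204 CPM in wounded total and 254, 251 and 248 CPM in wounded cortical libraries. The groups stood in the order unwounded total, unwounded cortical, wounded total, wounded cortical, and no neighbours in that order overlapped. From unwounded total to unwounded cortical, Lamb3 rose 1.84-fold (log2 fold change 0.88, SE 0.12, adjusted p = 2.40e-04). With wounding it rose 2.41-fold in the total fraction (log2 fold change 1.27, SE 0.12, adjusted p = 6.14e-06). The rise with wounding in the cortical fraction was 1.60-fold (log2 fold change 0.68, SE 0.12, adjusted p = 0.00584). Between the fractions of wounded cells the difference was 0.29 (SE 0.12, adjusted p = 0.105), and 0.38 with an adjusted p of 0.0114 without wounded total replicate 1. The difference between the 2 cortical-to-total ratios was -0.59 (SE 0.17), with an adjusted p of 0.296. Scaling by library size alone left the wounding response of the cortical fraction at 0.63 with an adjusted p of 0.051, and put the wounded cortical-to-total difference at 0.49 with an adjusted p of 0.0305.

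Lama3 encodes the alpha chain of the same laminin (ENSMUSG00000024421, chromosome 18, 12333819 to 12583013, plus strand). Its levels were 157, 131 and 157 CPM in unwounded total libraries and 182, 174 and 193 CPM in unwounded cortical libraries. They were 248, 156 and 176 CPM in wounded total and 295, 279 and 282 CPM in wounded cortical libraries. All 3 wounded cortical libraries were above the other 9, and wounded total replicate 1 was high for its group. In wounded cells Lama3 was 1.47-fold higher in the cortical fraction (log2 fold change 0.56, SE 0.14, adjusted p = 0.0131). In the cortical fraction it rose 1.56-fold with wounding (log2 fold change 0.64, SE 0.14, adjusted p = 0.0213). These Lama3 calls sat close to the threshold. The wounding call in the cortical fraction was lost when any 1 of the 6 cortical libraries was left out (adjusted p from 0.0684 to 0.0996) with library size scaling (0.58, adjusted p = 0.137) and by limma (0.59 and 0.62, adjusted p = 0.0555 and 0.0592). The wounded cortical-to-total call was lost without wounded total replicate 2 (0.42, adjusted p = 0.0793), wounded total replicate 3 (0.49, adjusted p = 0.0527) or wounded cortical replicate 1 (0.54, adjusted p = 0.0503), and with only the groups compared in the fit (0.56, adjusted p = 0.0714). Lama3 in unwounded cells differed by 0.30 between fractions (SE 0.14, adjusted p = 0.177), a difference called without wounded total replicate 1 (0.30, adjusted p = 0.0146) and with only the groups compared in the fit (0.30, adjusted p = 0.0361). It was 0.07 once the trend with gene length was removed (adjusted p = 0.807). In the total fraction Lama3 stood 0.38 higher in wounded cells (SE 0.14, adjusted p = 0.0761), which was 0.16 without wounded total replicate 1 and 0.51, with an adjusted p of 0.0301, without wounded total replicate 2. It was also called by DESeq2 (0.41, adjusted p = 0.0297), with no filter (0.37, adjusted p = 0.0274) and with the gene length trend removed (0.38, adjusted p = 0.0194). The change of the Lama3 cortical-to-total ratio with wounding was 0.26 (SE 0.20, adjusted p = 0.766), and 0.48 with an adjusted p of 0.0485 without wounded total replicate 1.

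Lama5 encodes the alpha chain of the common epithelial laminin (ENSMUSG00000015647, chromosome 2, 180176373 to 180225859, minus strand). It was 195, 158 and 174 CPM in unwounded total and 247, 227 and 263 CPM in unwounded cortical libraries. In wounded cells it was 162, 128 and 140 CPM in total and 238, 241 and 236 CPM in cortical libraries. All 6 cortical libraries were above all 6 total libraries. Lama5 was 1.40-fold higher in the cortical fraction of unwounded cells (log2 fold change 0.48, SE 0.11, adjusted p = 0.00798). In wounded cells it was 1.66-fold higher (log2 fold change 0.73, SE 0.11, adjusted p = 7.23e-04). Correction for gene length put the unwounded difference at 0.24 with an adjusted p of 0.119, and the wounded one at 0.49 with an adjusted p of 0.00274. With wounding the Lama5 value in the cortical fraction was -0.04 (SE 0.11, adjusted p = 0.893), and those groups overlapped. In the total fraction the value was -0.29 (SE 0.11, adjusted p = 0.0892), and Lama5 was called lower without wounded total replicate 1 (-0.39, adjusted p = 0.00498) and after correction for gene length (-0.28, adjusted p = 0.0451).

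Lamb1 (ENSMUSG00000002900, chromosome 12, 31265234 to 31329644, plus strand) and Lamc1 (ENSMUSG00000026478, chromosome 1, 153218922 to 153332786, minus strand) encode the beta and gamma chains that join the Lama5 product. Lamb1 was 15.4, 16.8 and 19.1 CPM in unwounded total, 17.9, 13.7 and 26.4 in unwounded cortical, 35.9, 18.8 and 15.1 in wounded total and 24.7, 25.8 and 19.0 in wounded cortical libraries. Lamc1 was 9.21, 7.28 and 7.31 CPM in unwounded total, 11.4, 7.44 and 10.7 in unwounded cortical, 9.02, 7.30 and 5.21 in wounded total and 12.5, 12.2 and 7.25 in wounded cortical libraries. The groups overlapped in every pair for both genes, and neither was called in any of the 5 comparisons. For Lamb1 the largest value was 0.45 with wounding in the total fraction (SE 0.28, adjusted p = 0.309), and it was -0.01 without wounded total replicate 1. The Lamb1 difference between the fractions of wounded cells was -0.01, and 0.44 without that library. For Lamc1 the largest value was 0.57 between the fractions of wounded cells (SE 0.27, adjusted p = 0.182).

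Col17a1, the transmembrane collagen of the hemidesmosome, was higher both at the cortex and after wounding (ENSMUSG00000025064, chromosome 19, 47646344 to 47692094, minus strand). Its levels were 142, 117 and 136 CPM in unwounded total libraries and 208, 211 and 200 CPM in unwounded cortical libraries. They were 238, 184 and 181 CPM in wounded total and 340, 333 and 338 CPM in wounded cortical libraries. All 3 wounded cortical libraries were above the other 9, all 3 unwounded total libraries were below the other 9, and the groups between overlapped each other. The cortical level was 1.57-fold the total level in unwounded cells (log2 fold change 0.65, SE 0.12, adjusted p = 0.00152). In wounded cells it was 1.68-fold (log2 fold change 0.75, SE 0.12, adjusted p = 7.57e-04). Wounding raised Col17a1 1.53-fold in the total fraction (log2 fold change 0.61, SE 0.12, adjusted p = 0.00197) and 1.63-fold in the cortical fraction (log2 fold change 0.71, SE 0.12, adjusted p = 0.00372). Each of these calls held in all 25 alternatives.

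Col7a1, the collagen of anchoring fibrils, was higher in the cortical fraction and was not called with wounding (ENSMUSG00000025650, chromosome 9, 108953586 to 108984875, plus strand). It was 57.7, 49.5 and 59.7 CPM in unwounded total and 94.3, 108 and 98.7 CPM in unwounded cortical libraries. After wounding it was 46.1, 45.5 and 54.3 CPM in total and 97.3, 82.96 and 92.9 CPM in cortical libraries. All 6 cortical libraries were above all 6 total libraries, while wounded and unwounded libraries overlapped within each fraction. The cortical level was 1.80-fold the total level in unwounded cells (log2 fold change 0.85, SE 0.11, adjusted p = 2.18e-04) and 1.87-fold in wounded cells (log2 fold change 0.91, SE 0.11, adjusted p = 2.48e-04). Both calls held in all 25 alternatives. With wounding the values were -0.19 in the total fraction (SE 0.11, adjusted p = 0.279) and -0.14 in the cortical fraction (SE 0.11, adjusted p = 0.592).

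Thbs1 and Tnc were close to the detection limit. Thbs1 (ENSMUSG00000040152, chromosome 2, 118111876 to 118127133, plus strand) had 21, 16 and 11 counts in unwounded total, 35, 20 and 12 in unwounded cortical, 0, 7 and 17 in wounded total and 18, 1 and 21 in wounded cortical libraries. All 3 unwounded cortical libraries were above the other 9 on the CPM scale. From unwounded to wounded cortical the ratio of summed Thbs1 counts was 0.465 (exact 95% interval 0.306 to 0.698, counting error only), with a fitted value of -1.20 (SE 1.08, adjusted p = 0.639). It was called in 0 of the 5 comparisons by edgeR, DESeq2 or limma, with 0 at an unadjusted p under 0.05. Tnc (ENSMUSG00000028364, chromosome 4, 63959785 to 64047015, minus strand) had 23, 19 and 12 counts in unwounded total, 13, 22 and 19 in unwounded cortical, 0, 4 and 1 in wounded total and 38, 29 and 16 in wounded cortical libraries. The 3 wounded total libraries were below the other 9. By counting error alone, the 0 counts in wounded total replicate 1 allow up to 0.178 CPM (3 counts) for each gene. In that library 41.2% of genes put at 10 to 20 counts by the rest of its group had none. The level of either gene there could thus be higher. Over the summed counts, Tnc was 13.9 times as abundant in the wounded cortical as in the wounded total fraction, with an exact 95% interval of 5.72 to 43.9 that covers counting error only. The fitted log2 fold change was 3.75 (SE 1.07, adjusted p = 0.0255), and 3.19 with an adjusted p of 0.0305 without wounded total replicate 1. The call was lost without wounded total replicate 3 (3.53, adjusted p = 0.0836), wounded cortical replicate 1 (3.65, adjusted p = 0.0633) or wounded cortical replicate 2 (3.50, adjusted p = 0.0683), and it held in 17 of 24 alternatives. It was also lost by limma (1.27, adjusted p = 0.0534, on log2 of FPKM plus 0.1, and 0.21, adjusted p = 0.113, plus 1), with only the 2 groups compared in the fit (3.76, adjusted p = 0.108) and with the block and the length trend removed together (3.79, adjusted p = 0.0524). From unwounded to wounded total, the Tnc value was -3.18 (SE 1.06, adjusted p = 0.0516), which was called without wounded total replicate 2 (-4.66, adjusted p = 0.0401), without unwounded cortical replicate 1 (-3.18, adjusted p = 0.0478), by DESeq2 (-3.23, adjusted p = 0.00833) and with library size (-3.30, adjusted p = 0.0449) or upper quartile scaling (-3.20, adjusted p = 0.0498). These differences rest on 5 counts in the wounded total group.

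**Figure D2:**
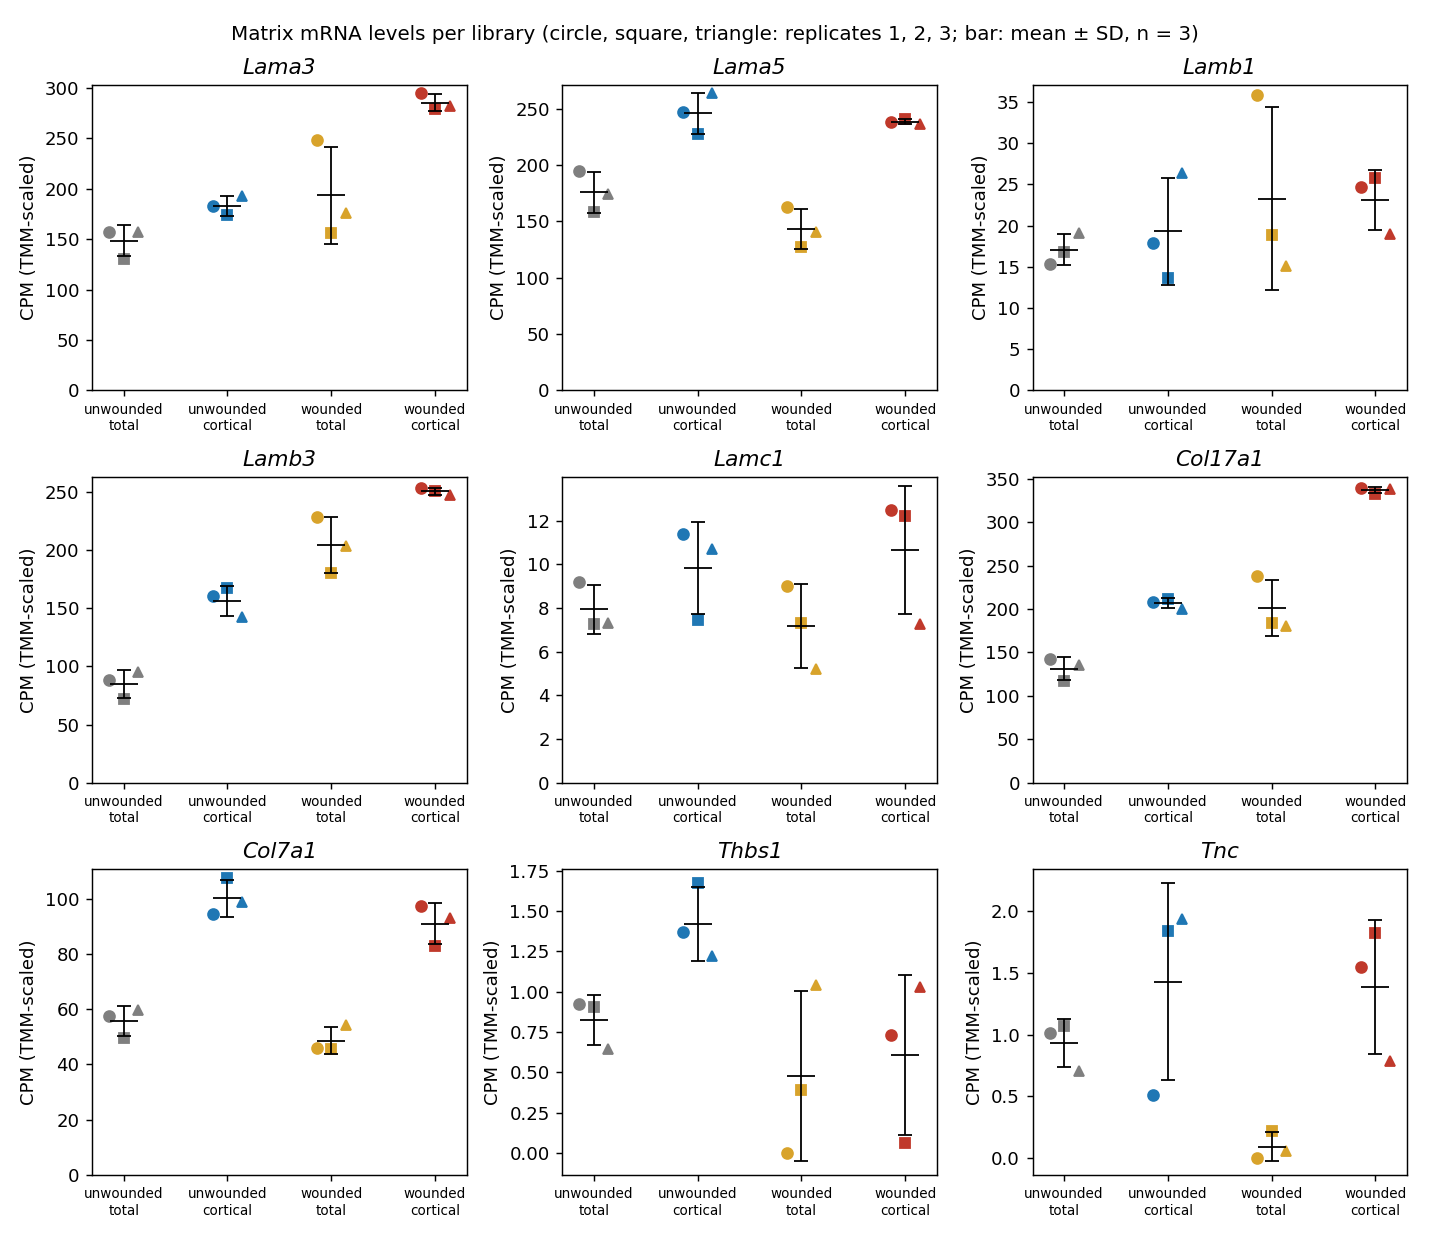
Level of each of the 9 genes in every library, in TMM-scaled CPM, by group; circles, squares and triangles are replicates 1, 2 and 3, and bars are the mean and SD (n = 3). Lamb3 and Col17a1 climb to 251 and 337 CPM in the wounded cortical group, Col7a1 and Lama5 separate by fraction, and Thbs1 and Tnc stay under 2 CPM.

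Per length, the levels of the 9 genes spanned a wide range. In unwounded total libraries the deposited FPKM (counts per gene length and library size) was 22.4 ± 2.38 (SD, n = 3) for Col17a1, 15.2 ± 1.65 for Lama5, 13.6 ± 1.48 for Lama3 and 12.6 ± 1.84 for Lamb3. It was 5.31 ± 0.551 for Col7a1, 1.69 ± 0.190 for Lamb1 and 0.942 ± 0.134 for Lamc1, and 0.133 ± 0.0242 and 0.117 ± 0.0241 for Thbs1 and Tnc. Lama5, Lama3 and Lamb3 overlapped each other in that group. In wounded cortical libraries Col17a1 was at 57.5 ± 0.593 FPKM, Lamb3 at 37.3 ± 0.567, Lama3 at 26.1 ± 0.798 and Lama5 at 20.6 ± 0.269. In that group these 4 genes did not overlap, and Lamb3 stood next after Col17a1. By mean it also stood there in unwounded cortical libraries (23.6 FPKM, against 21.5 for Lama5, with overlap). The same held in wounded total libraries (31.0, against 18.05 for Lama3).

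Ratios of chains within a library do not depend on how libraries are scaled. The Lamb3 to Lamb1 ratio of FPKM compares the hemidesmosomal beta chain with the one that joins the Lama5 product. Lamb2, a further beta chain, is not in this ratio, and its mean FPKM was above that of Lamb1 in all 4 groups. Lamb2 was at 3.51 and Lamb1 at 1.69 in unwounded total, 4.87 and 1.95 in unwounded cortical, 5.53 and 2.36 in wounded total, and 5.48 and 2.30 in wounded cortical libraries. It was 8.58, 6.43 and 7.47 in unwounded total, 13.5, 18.3 and 8.06 in unwounded cortical, 9.55, 14.4 and 20.2 in wounded total and 15.4, 14.6 and 19.6 in wounded cortical libraries. Wounding raised the mean log2 ratio of the total fraction by 0.92 (SE 0.33), and its 3 wounded libraries were above the 3 unwounded ones (exact two-sided permutation p = 0.1, the smallest that 3 against 3 libraries can give). In the cortical fraction the difference with wounding was 0.38 (exact permutation p = 0.4). Between fractions it was 0.76 in unwounded cells (exact permutation p = 0.2) and 0.22 in wounded cells (exact permutation p = 0.6). Over these 4 exact permutation tests the Benjamini-Hochberg adjusted p-values ran from 0.4 to 0.6.

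The ratio of the alpha chains, Lama3 to Lama5, was added after the values had been seen and was not tested. It was 0.856, 0.877 and 0.954 in unwounded total, 0.783, 0.810 and 0.776 in unwounded cortical, 1.62, 1.30 and 1.33 in wounded total and 1.31, 1.23 and 1.26 in wounded cortical libraries. All 6 wounded libraries had more Lama3 than Lama5 per length, and all 6 unwounded libraries had less.

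**Figure D3:**
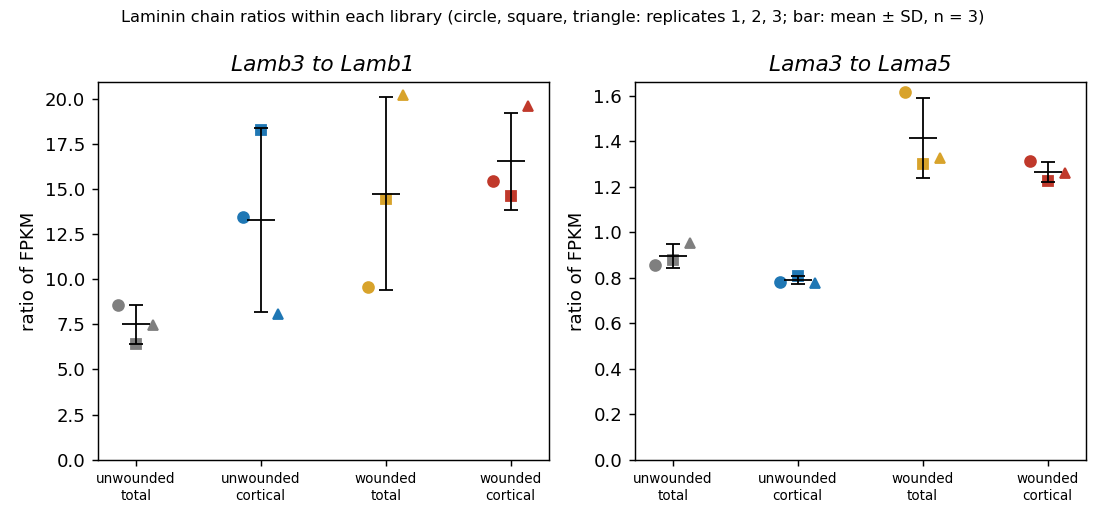
Ratios of deposited FPKM between laminin chains of the same kind in every library, by group; circles, squares and triangles are replicates 1, 2 and 3, and bars are the mean and SD (n = 3). The Lama3 to Lama5 ratio lies under 1 in the 6 unwounded libraries and above 1 in the 6 wounded libraries, while the Lamb3 to Lamb1 ratio spreads more within groups.

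The 9 genes share long transcripts, which the choice of members did not use. Their deposited gene lengths ran from 5765 bases (Col17a1) to 11388 bases (Lama5), at percentiles 70.8 to 94.5 of the genes tested. Their longest coding sequences in GENCODE M21 ran from 3504 bases (Lamb3) to 11154 bases (Lama5), over 22 to 119 exons. As an alternative, the trend of counts with gene length was removed from each library. In unwounded cells 3 of 9 were then called higher, against 4.54% of all genes, with Lamb3 at 0.74, Col7a1 at 0.62 and Col17a1 at 0.54. In wounded cells 5 of 9 were then called higher, against 4.35% of all genes, with Col7a1 at 0.68, Col17a1 at 0.67, Lama5 at 0.49 and Lama3 at 0.35. With this correction the wounding responses were 1.26 and 0.71 for Lamb3 and 0.61 and 0.73 for Col17a1 in the total and cortical fractions. In the total fraction 3 of 9 then rose, against 9.02% of all genes, and 1 fell, against 7.91%, and in the cortical fraction 3 rose, against 2.36%.

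**Figure D4:**
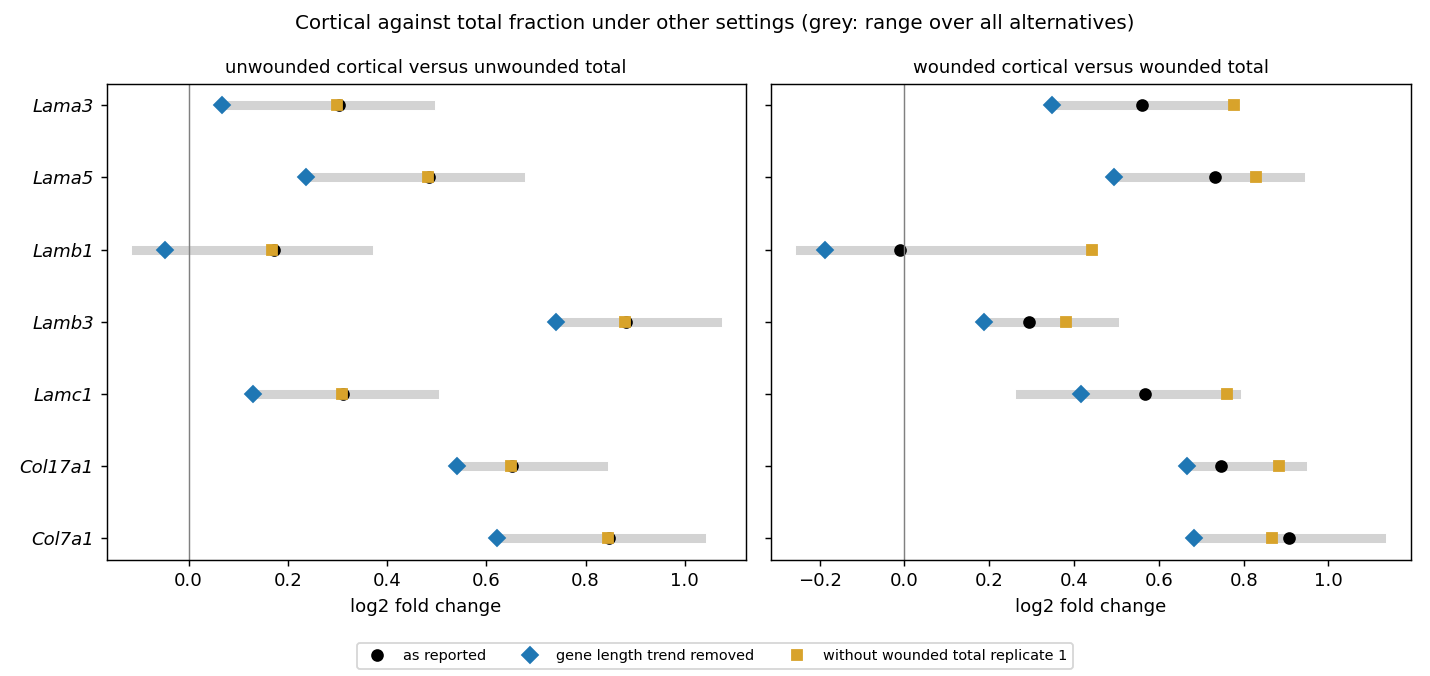
Cortical against total log2 fold change for the 7 laminin and collagen genes in unwounded (left) and wounded (right) cells; black circles are the values as reported, blue diamonds those with the gene length trend removed, orange squares those without wounded total replicate 1, and grey bars the range over all alternatives. Removing the length trend moves every point to the left, while Lamb3, Col17a1 and Col7a1 in unwounded cells stay above 0.5.

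Other genes of the same matrix were taken from 4 lists written from general knowledge. Their counts are to be read against the shares of all genes given above for each comparison. Of the 13571 genes, DESeq2 called 1107 higher and 1114 lower between fractions of unwounded cells, and 1090 and 1435 in wounded cells. With wounding it called 1527 and 1074 in the total and 394 and 342 in the cortical fraction. Limma on FPKM plus 1 called 777 and 856, 624 and 1023, 1154 and 780, and 171 and 128 in the same order. At an unadjusted p under 0.05 in edgeR, in either direction, there were 3616, 3944, 3972 and 2341 of all genes. Of 30 other basement membrane genes, 15 were tested, and 4 were higher in the cortical fraction of unwounded cells and 6 in that of wounded cells. By edgeR 0 were lower in either, with 0 and 1 lower at an unadjusted p under 0.05, 0 and 1 by DESeq2, and 0 and at most 1 by limma. With the length trend removed 2 and 3 were higher, against 4.54% and 4.35% of all genes, and by limma 3 in wounded cells. Leaving out wounded total replicate 1, which raised the share of all genes called higher to the 10.1% and 12.1% given above and that of lower genes to 12.3% and 12.6%, gave 6 higher in unwounded cells and 6 higher and 1 lower in wounded cells. The count was 2 in unwounded cells without unwounded total replicate 2 or unwounded cortical replicate 3, and 3 in wounded cells without wounded total replicate 2. Their median log2 fold change was 0.45 in unwounded and 0.25 in wounded cells. Hspg2, which encodes the heparan sulfate proteoglycan perlecan, was higher in the cortical fraction of unwounded (0.74, adjusted p = 0.0083) and wounded cells (0.93, adjusted p = 0.00233). In unwounded cells the Hspg2 call was lost with the length trend removed (0.45, adjusted p = 0.138). Fras1, a protein of the epidermal basement membrane, fell by 0.82 on the log2 scale with wounding in the total fraction (adjusted p = 0.0137) and was higher in the cortical fraction of wounded cells (0.92, adjusted p = 0.00719). Corrected for length, the Fras1 value between fractions was 0.56 with an adjusted p of 0.109. Lamb2 rose with wounding in the total fraction (0.63, adjusted p = 0.0299). Several of these calls were lost with 1 library left out. The Hspg2 call in unwounded cells was lost without unwounded total replicate 2 (0.68, adjusted p = 0.0512) or unwounded cortical replicate 3 (0.63, adjusted p = 0.0511). With wounding in the total fraction, the Fras1 call was lost without unwounded total replicate 1 (-0.69, adjusted p = 0.0886). The Lamb2 call was lost without unwounded total replicate 1 (0.57, adjusted p = 0.129), unwounded total replicate 2 (0.54, adjusted p = 0.129) or wounded total replicate 1 (0.40, adjusted p = 0.0826). In this list 3 genes rose and 1 fell with wounding in the total fraction, and 2 fell by DESeq2 and 0 by limma. Without unwounded total replicate 1 the counts were 1 and 0, without unwounded total replicate 2 they were 0 and 1, and without any 1 of the 3 wounded total libraries 2 and 2. Without wounded total replicate 1, 13.4% of all genes rose in the total fraction and 11.5% fell. In the cortical fraction 0 changed by edgeR, DESeq2 or limma, with 2 at an unadjusted p under 0.05, against 2341 of all 13571 genes.

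Of 31 other wound matrix symbols 17 were tested, and 0 differed between fractions in unwounded cells by edgeR, against 1 by DESeq2 and at most 1 by limma. In edgeR 3 of the 17 had an unadjusted p under 0.05 there, against 3616 of all 13571 genes. In wounded cells Ltbp4, which binds latent TGF-beta, was higher in the cortical fraction (0.74, adjusted p = 0.0029), and Tgfbi, an adhesion protein induced by TGF-beta, was lower there (-0.32, adjusted p = 0.0326). Without wounded total replicate 1 the list had 1 gene higher in unwounded cells (against 10.1% of all genes). In wounded cells it then had 1 higher (against 12.1%) and 3 lower (against 12.6%). With wounding 5 of the 17 rose in the total and 3 in the cortical fraction, where limma called 1. In the cortical fraction 4 rose and 1 fell without wounded total replicate 1 (against 5.47% and 3.6% of all genes), and 1 rose without any 1 of 7 libraries, the 3 unwounded cortical ones, wounded cortical replicates 1 and 2, unwounded total replicate 1 and wounded total replicate 2. By edgeR 0 fell, with 0 and 2 lower at an unadjusted p under 0.05, 0 and 1 by DESeq2 and 0 by limma. Tgfbi rose by 1.44 in the total fraction (adjusted p = 2.37e-07) and by 0.88 in the cortical fraction (adjusted p = 1.28e-04). Ctgf, a matricellular protein, rose by 1.08 in the total fraction (adjusted p = 0.0059), and Ecm1 rose by 0.62 in the cortical fraction (adjusted p = 0.0386). The Ecm1 call was lost without any 1 of 8 libraries, all 6 cortical ones, unwounded total replicate 1 and wounded total replicate 2 (adjusted p from 0.0591 to 0.134). The Tgfbi call between fractions was lost without any 1 of 6 libraries, the 3 wounded cortical ones, wounded total replicates 2 and 3 and unwounded cortical replicate 1 (adjusted p from 0.0504 to 0.113).

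The third list held enzymes and chaperones that fold and trim matrix proteins. Of 32 symbols 21 were tested, and 1 was higher in the unwounded cortical fraction, against 6.62% of all genes. This was Bmp1, a protease that processes procollagens and laminin chains (0.52, adjusted p = 0.047). The Bmp1 value was 0.32 after correction for length (adjusted p = 0.224). Plod3, a lysyl hydroxylase, was the 1 gene of the list that rose with wounding in the total fraction (0.37, adjusted p = 0.0271). Of all genes 8.39% rose there. The Bmp1 call was lost without any 1 of 9 libraries (adjusted p from 0.05005 to 0.193) and kept without unwounded cortical replicate 2 or wounded total replicates 1 or 3. The Plod3 call was lost without any 1 of 5 libraries, the 3 unwounded total ones and wounded total replicates 2 and 3 (adjusted p from 0.0507 to 0.138). Between fractions of wounded cells 0 of the 21 differed by edgeR, 1 by DESeq2 and 1 by limma. In edgeR 7 of the 21 had an unadjusted p under 0.05, against 3944 of all 13571 genes. These counts moved most without wounded total replicate 1, which also raised the share of all genes called. The cortical fraction then had 3 higher in unwounded cells (against 10.1% of all genes) and 4 higher in wounded cells (against 12.1%). With wounding in the total fraction 3 were then higher (against 13.4%) and 1 lower (against 11.5%). Without wounded cortical replicate 1 the list had 1 gene higher between fractions of wounded cells, against 603 of all 14085 genes. By DESeq2 and by limma 2 rose with wounding in the total fraction, and limma called 0 between fractions of unwounded cells. With wounding in the cortical fraction 0 differed by all 3 tools. In edgeR 4 of the 21 had an unadjusted p under 0.05 there, against 2341 of all 13571 genes.

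Receptors of these matrix proteins and their linkers made up the fourth list, with 21 of 23 tested. In unwounded cells 7 were higher in the cortical fraction and in wounded cells 4. With the length trend removed these were 5 and 1, against 4.54% and 4.35% of all genes. Without wounded total replicate 1 the counts were 8 higher and 1 lower in each of the 2 cell states. Of all genes 10.1% were then higher and 12.3% lower in unwounded cells, and 12.1% and 12.6% in wounded cells. Without unwounded cortical replicate 3 the list had 4 higher in unwounded cells. By edgeR 0 were lower, against 1 in each by DESeq2 and by limma, with 1 in each at an unadjusted p under 0.05. Plec, a linker of hemidesmosomes to keratin, had the largest differences (1.37, adjusted p = 5.30e-07, and 1.36, adjusted p = 1.81e-06). Dst, which encodes another such linker, was higher in the unwounded cortical fraction (0.96, adjusted p = 4.29e-05) and rose with wounding in the total (1.18, adjusted p = 4.57e-06) and cortical fractions (0.72, adjusted p = 0.00214). Itga6, a subunit of the hemidesmosomal laminin receptor, was higher in the cortical fraction of wounded cells (0.51, adjusted p = 0.00603), and at 0.33 with an adjusted p of 0.0548 after correction for length. With wounding 5 rose in the total fraction by edgeR, 10 by DESeq2 and 6 by limma. Over all 13571 genes these counts were 1139, 1527 and 1154 (limma on FPKM plus 1). In the cortical fraction 3 rose by edgeR, 3 by DESeq2 and 2 by limma, against 217, 394 and 171 of all genes. Without wounded total replicate 1, 7 rose (against 13.4% of all genes) and 1 fell (against 11.5%) in the total fraction. In the cortical fraction 5 then rose (against 5.47%), and 1 rose without any 1 of 5 cortical libraries, all but unwounded cortical replicate 2. With all libraries 0 fell by edgeR, DESeq2 or limma, with 1 and 0 lower at an unadjusted p under 0.05 in edgeR. Itga3, an alpha chain of a laminin-binding integrin, rose in the total fraction (0.68, adjusted p = 0.00255), and Sdc4, a syndecan, rose in the cortical fraction (0.53, adjusted p = 0.0156). The Sdc4 call was lost without any 1 of 5 cortical libraries and kept without unwounded cortical replicate 2 (adjusted p from 0.0522 to 0.0962 where lost).

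Across the 12 libraries, which share depth and group structure, log2 CPM of Lama3 and Col17a1 had a Pearson correlation of 0.954, Lama5 and Col7a1 of 0.919, and Lamb3 and Col17a1 of 0.912. Lama5 and Lamb3 had a correlation of 0.230. Among 8849 other protein-coding genes that averaged 100 counts or more, the closest to Lamb3 was Krt5 (0.989), and the closest to Col17a1 were Vars2 (0.977) and Ptpn13 (0.969). The closest to Lama5 were Prrc2a (0.989) and Cad (0.983), to Col7a1 Chd2 (0.985) and Dnajc14 (0.978), and to Lama3 Plcg1 (0.960) and Dnmt1 (0.958). For Lamb1 they were Ppip5k1 (0.874) and Mbtps1 (0.848), for Lamc1 Uhrf1bp1 (0.896) and Rars2 (0.864), for Thbs1 Hmgb3 (0.930) and Fut9 (0.915), and for Tnc Man2a1 (0.947) and Zmat3 (0.931). These values describe likeness over 12 libraries in 4 groups and carry no test.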

How the data were processed

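The authors deposited a table of raw counts per gene and a table of FPKM values, each with 1 column per library. The submitters' processing notes name CASAVA, HISAT2 and mm10, and the counting tool and annotation release are not given in the sources used here. Libraries were made from poly-A RNA and were non-directional, per the labels, so reads of a gene and its antisense partner cannot be told apart. Lama3, Tnc and Thbs1 have antisense genes with shared exon bases, which had 61, 0 and 0 counts in all 12 libraries. Within each library every deposited FPKM of a gene with 50 or more counts equalled the count divided by gene length and 1 effective library size to within 0.1%. Positions are those of the deposited tables, and 98.3% of the identifiers matched to GENCODE M21 (GRCm38) had the same coordinates, all 9 members among them. The deposited Col17a1 length of 5765 bases differed from its merged exon length of 6011 bases in GENCODE M21. Every sample column was used (0 were left out), and 0 pairs of libraries were identical. The standard error of a log2 fold change was taken as its size over the square root of the F statistic.

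The tests ran under R 4.3.3, with edgeR 4.0.16 on the deposited counts (filterByExpr, TMM, glmQLFit and glmQLFTest, a mean per group over all 12 libraries, Benjamini-Hochberg over all 13571 genes, threshold 0.05, two-sided). Alternatives were DESeq2 1.42.0, limma 3.58.1 on log2 of FPKM plus 1 or 0.1, other scalings and filters, only the groups compared, the replicate number as a block, per-library removal of a loess trend (span 0.5) of counts on gene length, and each library left out in turn. Correlations used log2 CPM with a prior count of 2. Figures used matplotlib 3.10.9. Exact permutation tests used scipy 1.17.1. The 9 members are named in every comparison; from the 4 lists, the text names called genes that averaged 100 counts or more, up to 2 with the largest changes in each direction, and the 2 genes closest in pattern to each member, except that some genes this rule names are not reported here. The members and lists were chosen with earlier results of these data known. In simulated data, 200 changed genes were drawn from the 13571 and changed in both cortical groups, with no effect of wounding. Each gene had the same dispersion in all 12 libraries, so the missing genes of wounded total replicate 1 were not simulated as such. The rates below are those of the unwounded cortical against total comparison. On the simulated counts 13220 genes passed the filter. Over the changed genes that passed, the fit recovered 53.7% of 2-fold and 79.4% of 4-fold changes, with 7.25% of its calls false. In a second simulation no gene was changed and cortical counts were given a trend with gene length. The fit called 1400 genes, and 0 once the trend was removed. The trend was of the kind that the correction fits, and its strength was not matched to the data. Without a changed gene, the simulation cannot show whether the correction also takes away real differences of long genes.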

Additional observations from a re-analysis of the deposited data

How the results depend on the processing

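Of 1106 values of the 9 genes under other settings, 1036 kept their direction and their side of the threshold, 23 lost a call, 18 gained one and 29 changed sign, and 0 of those 29 were called. For Lamb1 the cortical-to-total value in unwounded cells was -0.0483 with the length trend removed and -0.06 with the replicate block as well, and ran from -0.11 to 0.36 with each library left out. In wounded cells it was 0.15 with library size alone, 0.0185 and 0.0462 by limma on FPKM plus 1 and plus 0.1, 0.0245 with the replicate block, and -0.25 to 0.44 with a library left out. With a library left out, Lamb1 with wounding in the total fraction ran from -0.0066 to 0.68 and its interaction from -0.44 to 0.27, Lamc1 ran from -0.34 to 0.0329 in the total and -0.0531 to 0.32 in the cortical fraction, and Lama5 in the cortical fraction from -0.0975 to 0.0072. Thbs1 ran from -0.22 to 1.60 between fractions of wounded cells and its interaction from -0.99 to 0.80. Tnc with wounding in the cortical fraction was 0.0056 by limma on FPKM plus 0.1, 0.0457 with the replicate block, 0.0067 with the length trend removed, 0.0812 with both, and -0.44 to 0.26 with a library left out. The Col7a1 interaction was -0.005 by limma on FPKM plus 1 and ran from -0.0085 to 0.13 with a library left out. The cause of these shifts was not tested.

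The number of the 9 genes called ran from 4 to 5, 3 to 6, 2 to 4, 2 to 3 and 0 to 1 with each library left out, for the cortical-to-total comparisons of unwounded and wounded cells, the wounding comparisons of the total and cortical fractions, and the interaction. It was 3 for wounded cortical against total with only those groups in the fit, 4 for wounding in the total fraction by DESeq2 and with the length trend removed, with or without the block, and 1 for wounding in the cortical fraction with library size alone. Over all genes the counts of 1928, 2124, 2116, 337 and 17 ran from 949 to 3151, 1084 to 3475, 1128 to 3502, 108 to 1276 and 4 to 413 with each library left out, the highest without wounded total replicate 1 in each case. With only the groups compared they were 2979, 938, 1117 and 1377. With the length trend removed 1304 genes were called between fractions of wounded cells, and 1209 with the block. Wounding in the cortical fraction gave 199 with library size alone, 736 by DESeq2 and 559 with no filter. The interaction gave 11 with library size alone, 72 by DESeq2, 10 by limma on FPKM plus 1 or 0.1, 138 with no filter and 10 with the replicate block. Library size scaling shifted the median log2 fold change of all genes to -0.10 for wounding in the total fraction and to 0.19 and 0.25 in the cortical-to-total comparisons, with 1582 higher and 469 lower, and 2203 higher and 520 lower, against 898 and 1030, and 1034 and 1090, with TMM. For wounding it gave 708 higher and 1104 lower in the total fraction, against 1139 and 977, and 108 and 91 in the cortical fraction, against 217 and 120. The mean of at least 50 counts removed Thbs1 and Tnc. The log2 difference of the Lamb3 to Lamb1 ratio ran from 0.49 to 1.08, -0.06 to 0.48, 0.66 to 1.20 and 0.06 to 0.65 over the 4 pairwise comparisons with each library left out.

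The labels do not say whether same-numbered libraries share a dish, and not every pair correlated above 0.1, so the numbers were not treated as pairing the libraries. Same-numbered libraries of the 2 total groups deviated from their group means with correlations of 0.15, 0.22 and -0.01 across 10386 genes, and of the other pairs of groups with -0.03 to 0.01. In the total groups 4 of 6 libraries were closest to their own number, and 1, 0 and 0 of 6 in the other comparisons. With the replicate block the 5 counts over all genes were 1857, 1985, 2038, 276 and 10, and the call of no member changed.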
